A study of Homo sapiens with 18 samples.

Results

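The nuclear-encoded subunits of oxidative phosphorylation, the chain of complexes I to V in the inner mitochondrial membrane, were followed across all 18 arrays of this series. Members were the genes whose symbols start with NDUFA, NDUFB, NDUFC, NDUFS, NDUFV, UQCR, COX4 to COX8 or ATP5, together with SDHA, SDHB, SDHC, SDHD and CYC1, without assembly factors and pseudogenes. The rule named 87 genes. Of these, 78 were among the 19775 genes measured by a probe set that names that gene alone, and 75 were bright enough to be tested, namely 33 of 37 for complex I, 3 of 4 for complex II, 7 of 10 for complex III, 15 of 17 for complex IV and 17 of 19 for complex V. COX7B2, COX8C and ATP5MF were measured but stayed under the filter. The members without such a probe set, among them NDUFC2, NDUFS5, NDUFS8, SDHB, UQCRFS1, UQCRH, UQCRHL and ATP5MGL, and the 13 subunits encoded by mitochondrial DNA were not analysed here. NDUFA4, a complex IV subunit now named COXFA4, and its relatives are given only as related genes.

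The arrays hold RNA of MNNG/HOS (MNNG below) and 143B, established human osteosarcoma lines transduced with the green fluorescent protein ZsGreen and grown as orthotopic tumors in bone, of which the soft tissue component was taken. Cells that kept the membrane dye PKH26, which is diluted at each division, were sorted as High and are labelled tumor-initiating cells. Cells that had lost it were sorted as Low and are labelled bulk tumor cells. The number of cells sorted was 150000 for every High array and 700000 for every Low array. Cell number and dye state therefore cannot be told apart in any comparison of High with Low. There were 4 MNNG_High and 4 MNNG_Low arrays from the tumors MNNG-1231 and MNNG-1232, then MNNG-1233 and MNNG-1235, 5 143B_Low arrays from the tumors 143B-1251 to 143B-1255, and 3 143B_High arrays, 1 from 143B-1253 and the others from the pools 51&52 and 54&55. The 2 MNNG_Lung arrays came from lung metastases, 1 numbered 1233 and 1 named Mix, and the sources used here do not say whether a sort preceded them. The MNNG_High and MNNG_Lung arrays and MNNG-1231 Low share 1 date tag in the labels, and the other MNNG_Low arrays carry another. The labels name no drug for any group, every group carried ZsGreen, and each line stands as 1 cell line. Nothing beyond the tumor numbers says how independent the samples were, so p-values measure the spread between these arrays.

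Complex I (NADH dehydrogenase) and complex II (succinate dehydrogenase) pass electrons to ubiquinone, complex III (the cytochrome bc1 complex) passes them on to cytochrome c, and complex IV (cytochrome c oxidase) hands them to oxygen. The proton gradient built by complexes I, III and IV drives complex V, the ATP synthase. Tumor cells use this chain beside glycolysis, and transcription of its nuclear genes is known to be governed in part by nuclear respiratory factor NRF1, by GABP, an ETS family factor, and by YY1.

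RefSeq promoters of build GRCh38.p14, taken from 250 bases before to 50 bases after the gene start, were matched to 64 of the 75 tested members. Letters known from those factors were searched on both strands. The NRF1 letters GCGCATGCG were found in 10 of 64 member promoters (15.6%), against 3.3% of the promoters of all genes tested and 2.1% of all promoters in the table. Closed to their full palindrome by 1 more base, they were found in 4 member promoters (6.25%), those of ATP5F1C, NDUFA8, NDUFB4 and SDHD, against 2.08% and 1.36%. The shorter NRF1 letters TGCGCA, which can overlap the longer ones, occurred in 28.1% of member promoters, 12.4% of those of all genes tested and 8.42% of all. The ETS letters CCGGAAG were in 28.1%, 17.2% and 10.7%, and the YY1 letters AAGATGGCG in 10.9%, 3.49% and 1.85%. By complex, CCGGAAG stood in 5 of 31 complex I (16.1%), 5 of 12 complex IV (41.7%) and 5 of 14 complex V promoters (35.7%). TGCGCA stood in 10, 3 and 1 of the same (32.3%, 25% and 7.14%). In complexes II and III, with 2 and 5 promoters, CCGGAAG stood in 1 and 2 and TGCGCA in 2 and 2. These counts are small. A match describes letters in a window and is neither a binding site nor a cause.

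The 250 bases before the gene start are shown for members of smallest p in their complex, NDUFA7, UQCR11 and COX8A between High and Low cells of MNNG and SDHA and ATP5F1C between the lines. They are printed 5′ to 3′ on the gene's strand, with matches in capitals.
NDUFA7 (chr19:8321376-8321625, minus strand): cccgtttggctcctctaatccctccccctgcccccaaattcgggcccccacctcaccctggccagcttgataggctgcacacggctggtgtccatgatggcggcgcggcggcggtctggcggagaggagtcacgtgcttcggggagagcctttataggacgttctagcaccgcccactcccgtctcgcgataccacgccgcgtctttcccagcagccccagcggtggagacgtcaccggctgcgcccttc
SDHA (chr5:218070-218319, plus strand): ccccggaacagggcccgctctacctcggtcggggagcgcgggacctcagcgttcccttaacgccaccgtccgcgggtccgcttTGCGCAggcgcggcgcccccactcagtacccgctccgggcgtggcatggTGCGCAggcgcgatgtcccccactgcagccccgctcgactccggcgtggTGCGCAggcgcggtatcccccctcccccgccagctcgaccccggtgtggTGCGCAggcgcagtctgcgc
UQCR11 (chr19:1605463-1605712, minus strand): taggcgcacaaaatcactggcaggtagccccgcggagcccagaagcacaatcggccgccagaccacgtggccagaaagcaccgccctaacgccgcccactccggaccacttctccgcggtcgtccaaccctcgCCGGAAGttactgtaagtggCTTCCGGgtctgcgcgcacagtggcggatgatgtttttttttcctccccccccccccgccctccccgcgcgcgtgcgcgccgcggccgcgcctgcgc
COX8A (chr11:63974370-63974619, plus strand): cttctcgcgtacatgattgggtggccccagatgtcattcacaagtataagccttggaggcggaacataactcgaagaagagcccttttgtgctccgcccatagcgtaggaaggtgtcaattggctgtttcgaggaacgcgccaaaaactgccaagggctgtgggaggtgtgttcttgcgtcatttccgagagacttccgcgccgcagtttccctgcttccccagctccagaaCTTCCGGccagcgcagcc
ATP5F1C (chr10:7787927-7788176, plus strand): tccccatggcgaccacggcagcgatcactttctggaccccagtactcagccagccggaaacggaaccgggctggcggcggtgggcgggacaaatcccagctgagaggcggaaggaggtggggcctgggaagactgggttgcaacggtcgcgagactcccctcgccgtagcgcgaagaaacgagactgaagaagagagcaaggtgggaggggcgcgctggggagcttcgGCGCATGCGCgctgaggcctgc
SDHA held TGCGCA 4 times, UQCR11 held the ETS letters in both orientations, COX8A held them on the opposite strand, and ATP5F1C held the NRF1 palindrome. None of the letters searched was found in these 250 bases of NDUFA7. The 50 bases after the start, counted above but not printed, hold the YY1 letters for NDUFA7, and the counted window of UQCR11 also holds TGCGCA.

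Values below are log2 signals made with RMA, and differences between groups are log2 differences ± the standard error of the limma fit. A gene was called when its adjusted p, with Benjamini-Hochberg adjustment over 14418 genes, was under 0.05. Signals were not compared between probe sets, since each has its own brightness.

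The arrays themselves differed. The interquartile range of log2 signal, a measure of an array's spread, was 2.76 to 3.18 in MNNG_High, 3.29 to 3.40 in MNNG_Low, 3.26 to 3.48 in 143B and 2.09 to 2.28 in the lung arrays. Arrays of a bone tumor group correlated over all probe sets at 0.956 or more, and the lung arrays at 0.865. The members are mostly bright, 58 of them with a mean of at least 10, so each comparison is set beside the 1352 bright genes tested as well as beside all genes. Of the mesenchymal and osteoblast markers, VIM was at 14.28 to 14.57 in every group, but COL1A1, SPARC, FN1 and RUNX2 fell from 13.55, 12.14, 13.25 and 10.5 in MNNG_Low to 8.98, 7.00, 8.12 and 6.68 on the lung arrays. COL1A2 stayed near its level, at 8.56 in MNNG_Low and 8.44 on the lung arrays. ALPL and SP7 passed the value of the filter on 2 arrays each. Their means were higher on the lung arrays, at 6.04 and 6.38 against 4.06 and 4.36 in MNNG_Low.

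**Figure D1:**
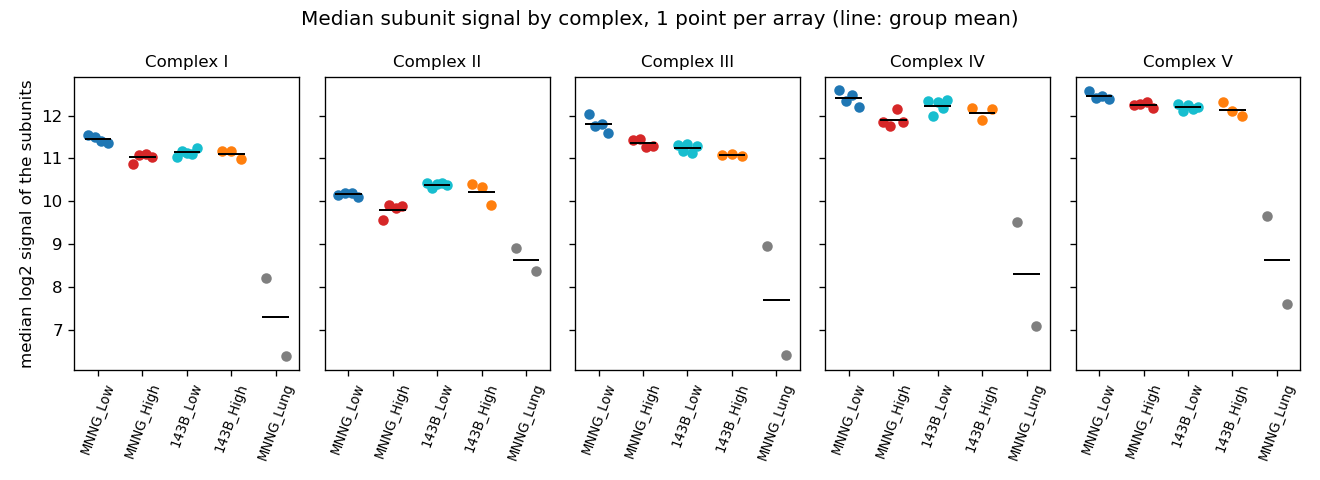
Median log2 signal of the tested subunits of each complex (vertical axis) on each of the 18 arrays, grouped by sample group, with the group mean as a line. The lung arrays lie far under all bone tumor arrays for complexes I, III, IV and V, and MNNG_High lies under MNNG_Low in each of the 5 complexes.

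The median signal over all 75 members was 11.68 to 11.81 on the MNNG_Low arrays and 11.26 to 11.54 on the MNNG_High arrays, with no overlap. It was 11.51 to 11.61 in 143B_Low and 11.34 to 11.55 in 143B_High. On the lung arrays it was 8.84 for sample 1233 and 6.96 for Mix. The order of the groups was therefore MNNG_Low, the 143B groups and MNNG_High close together, and the lung arrays last. In bulk RNA, fewer cells of a type and less RNA of a gene per cell cannot be told apart.

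Setting MNNG_High beside MNNG_Low addresses which subunits differ between dye-retaining and dye-diluted cells of the same tumors. Most members were lower in MNNG_High by a small amount, with 70 of 75 differences under 0, beside 1145 of the 1352 bright genes. The median was -0.36, against -0.19 over all genes tested and -0.24 over bright genes. The test called 13 members lower and 2 higher. That is 17.3% lower and 2.67% higher, where 15.5% of all genes were called lower and 10.6% higher. Of the 58 bright members 6 were lower (10.3%) and 0 higher, where 9.17% and 3.55% of bright genes were. The share called lower was thus near that of all genes for all members, and near that of bright genes for bright members. The High and Low arrays did not overlap for 51 members on the lower side and 3 on the higher side, while 19.4% and 10.4% of all genes and, on the lower side, 445 of the 1352 bright genes did so. Complex I took the most calls, 10 of 33 lower, with complex II at 1 of 3, complex III at 0 of 7, complex IV at 1 of 15 lower and 2 higher, and complex V at 1 of 17. Without MNNG-1231 High or MNNG-1231 Low 6 members were lower, and without MNNG-1233 Low 7. None was higher without MNNG-1231 High or MNNG-1233 High, and 1 was without any single MNNG_Low array.

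Within single tumors the differences ran the same way. Only in MNNG-1231 do High and Low share a date tag, so in the other tumors date tag and dye state cannot be told apart. The median difference between High and Low over the members was -0.56 in MNNG-1231, -0.25 in MNNG-1232, -0.27 in MNNG-1233 and -0.29 in MNNG-1235, beside medians over bright genes of -0.36, -0.14, -0.32 and -0.10. In MNNG-1233 the members' median was thus above that of the bright genes. Lower signal in all 4 tumors was seen for 65 of 75 members (86.7%), for 59.1% of bright genes and for 41.8% of all genes tested. For complex I it was 32 of 33 and for complex III 7 of 7, while for complex IV it was 9 of 15 with 3 higher in all 4.

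**Figure D2:**
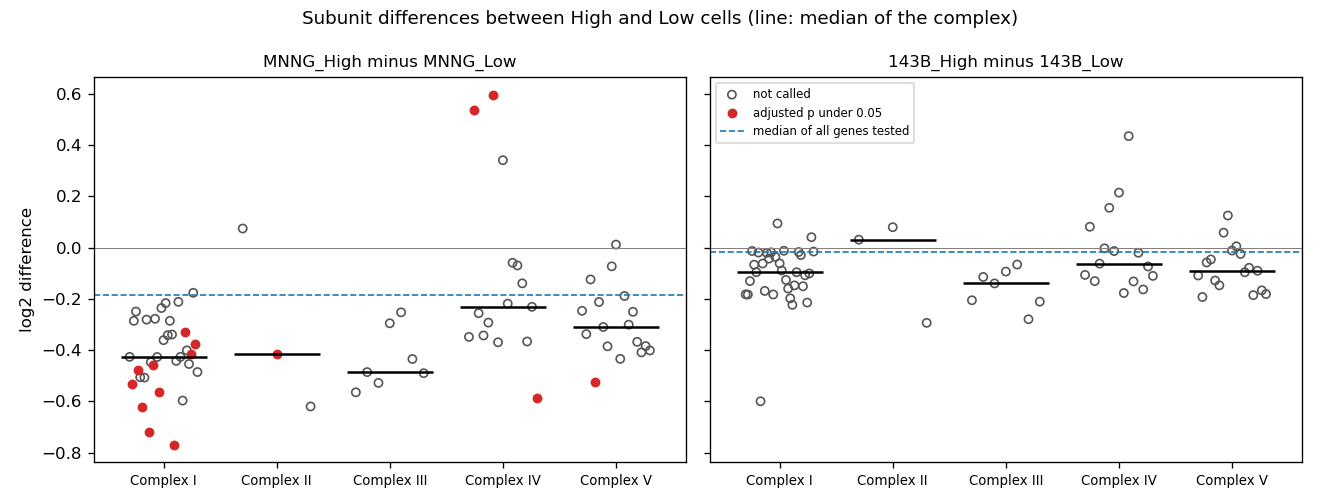
Log2 difference of High minus Low for every tested subunit in MNNG (left) and 143B (right), by complex. Filled points passed an adjusted p of 0.05, black lines are the median of a complex and the dashed line is the median of all genes tested. In MNNG, complex I has 10 filled points, all under 0, and in 143B there is none.

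The called decreases of NDUFB7, NDUFA7 and NDUFA3, all of complex I, were larger than those of the other 10 members called lower. NDUFA7, an accessory subunit, read 10.44, 10.44, 10.02 and 10.24 in MNNG_Low (tumors in the order given above) and 9.51, 9.71, 9.51 and 9.52 in MNNG_High. Every High array was under every Low array, with a difference of -0.72 ± 0.12 (limma adjusted p = 0.0030). Its second probe set was at -0.07 and not called, so the call rests on 1 probe set. NDUFB7, an accessory subunit of the membrane arm, read 10.12, 9.87, 9.95 and 9.80 in Low and 9.02, 9.31, 9.18 and 9.14 in High. Its groups did not overlap either (-0.77 ± 0.14, limma adjusted p = 0.0036), but its second probe set differed by 0.01, so this call too rests on 1 probe set. NDUFA10 was at -0.53 ± 0.12 and NDUFB10, of the membrane arm, at -0.56 ± 0.14. NDUFA10 has a second probe set called in the other direction, at 0.41. The second NDUFB10 probe set was at -0.27 and not called.

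Of the catalytic core of complex I, which holds the flavin and the iron-sulfur clusters that carry electrons, NDUFV2 (-0.38 ± 0.13), NDUFS7 (-0.41 ± 0.13) and NDUFS3 (-0.33 ± 0.12) were called lower. The second NDUFS7 probe set differed by 0.44 in the other direction. NDUFS1, the largest core subunit, was at -0.60 ± 0.33 and NDUFV1, which binds NADH, at -0.18 ± 0.14, and neither was called. The NDUFS and NDUFV subunits had 3 of 8 called lower, the NDUFA subunits 5 of 13, and the NDUFB and NDUFC subunits 2 of 12. The remaining called subunits, NDUFA3 (-0.62 ± 0.20), NDUFA9 (-0.46 ± 0.14) and NDUFA13 (-0.48 ± 0.13), were named after their values were seen. Without 1 array at a time NDUFS3 lost its call under all 8 choices, with limma adjusted p from 0.0515 to 0.106, and NDUFS7 and NDUFV2 each under 6 of 8, with limma adjusted p up to 0.0833 and 0.122.

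In complex II, SDHC, a membrane anchor of the enzyme, read 10.15, 10.18, 10.20 and 10.10 in MNNG_Low and 9.57, 9.90, 9.84 and 9.67 in MNNG_High. The groups did not overlap (-0.41 ± 0.13, limma adjusted p = 0.0268), and all 6 SDHC probe sets tested were called lower, from -0.38 to -1.27. The call was lost without the arrays MNNG-1231 High, MNNG-1231 Low, MNNG-1232 Low or MNNG-1233 Low, with limma adjusted p from 0.0525 to 0.0833. SDHD, the other anchor, was at -0.62 ± 0.28 and not called. SDHA, the flavin-binding subunit, was at 0.07 ± 0.11, and its probe set is of a type that can also bind related sequences, which makes its value uncertain.

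In complex III no member passed the test, although the median was the lowest of the 5 complexes at -0.49. UQCR11, a small subunit, read 11.66, 11.59, 11.37 and 11.45 in MNNG_Low and 10.77, 11.12, 11.10 and 10.97 in MNNG_High, without overlap, and differed by -0.53 ± 0.23 (limma adjusted p = 0.0895). The core proteins UQCRC1 and UQCRC2 were at -0.25 ± 0.16 and -0.43 ± 0.31, UQCRQ at -0.49 ± 0.30 and CYC1, the cytochrome c1 of the complex, at -0.56 ± 0.36. The standard errors in this fit include the spread between the lung arrays, which for UQCR11 read 8.10 and 6.42.

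Complex IV held members called in both directions. COX8A, a small subunit of the ubiquitous enzyme, read 12.59, 12.33, 12.26 and 12.20 in MNNG_Low and 11.61, 11.75, 11.97 and 11.70 in MNNG_High. Its groups did not overlap and it was lower, at -0.59 ± 0.14 (limma adjusted p = 0.0101). COX4I1, the common form of subunit 4, was at -0.35 ± 0.25 and COX5A, which pairs with it, at -0.26 ± 0.37, neither called.

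Of the tissue-restricted forms of complex IV subunits, COX4I2 and COX6A2 were called higher, but both entered the test only through groups where they are high. COX4I2 passed the filter value on 6 arrays, those of MNNG_High and MNNG_Lung, and COX6A2 on 4, 2 of each, so their values are a description. COX4I2, the form of subunit 4 known from lung and low oxygen, read 5.00, 4.99, 5.15 and 5.28 in MNNG_Low and 5.71, 5.43, 5.85 and 5.57 in MNNG_High, a difference of 0.54 ± 0.16. COX6A2, the heart and muscle form of subunit 6A, read 4.71, 4.72, 4.61 and 4.58 in Low and 5.71, 5.02, 5.41 and 4.87 in High, a difference of 0.60 ± 0.17. COX6B2, the testis form of subunit 6B, was at 0.34 ± 0.13 and not called, and COX7A1, the heart and muscle form of subunit 7A, was at -0.06 ± 0.23. The Low groups of COX4I2 and COX6A2, and the mean of COX6A2 in High, are below 5.36, the value of the filter, which leaves their sizes uncertain. With the interquartile range as a covariate COX6A2 turned to -0.05 and neither was called. COX4I2 lost its call without MNNG-1231 High, MNNG-1231 Low, MNNG-1232 Low or MNNG-1233 High (limma adjusted p up to 0.0679), and COX6A2 without MNNG-1231 High, MNNG-1233 High, MNNG-1233 Low or MNNG-1235 Low (up to 0.0817). Skeletal muscle markers moved in the same direction, with 2 of the 5 tested of 12 listed called higher, beside 10.6% of all genes. The mean over the list was 4.90 to 5.21 in MNNG_High and 4.73 to 4.82 in MNNG_Low. ACTN3 passed 5.36 on 8 arrays, with means of 5.88 in MNNG_High and 5.28 in MNNG_Low, so its values too are a description. MYH1, MYH2 and MYL1 passed 5.36 on 0 arrays, and the part of muscle RNA in these marker values was not tested.

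**Figure D3:**
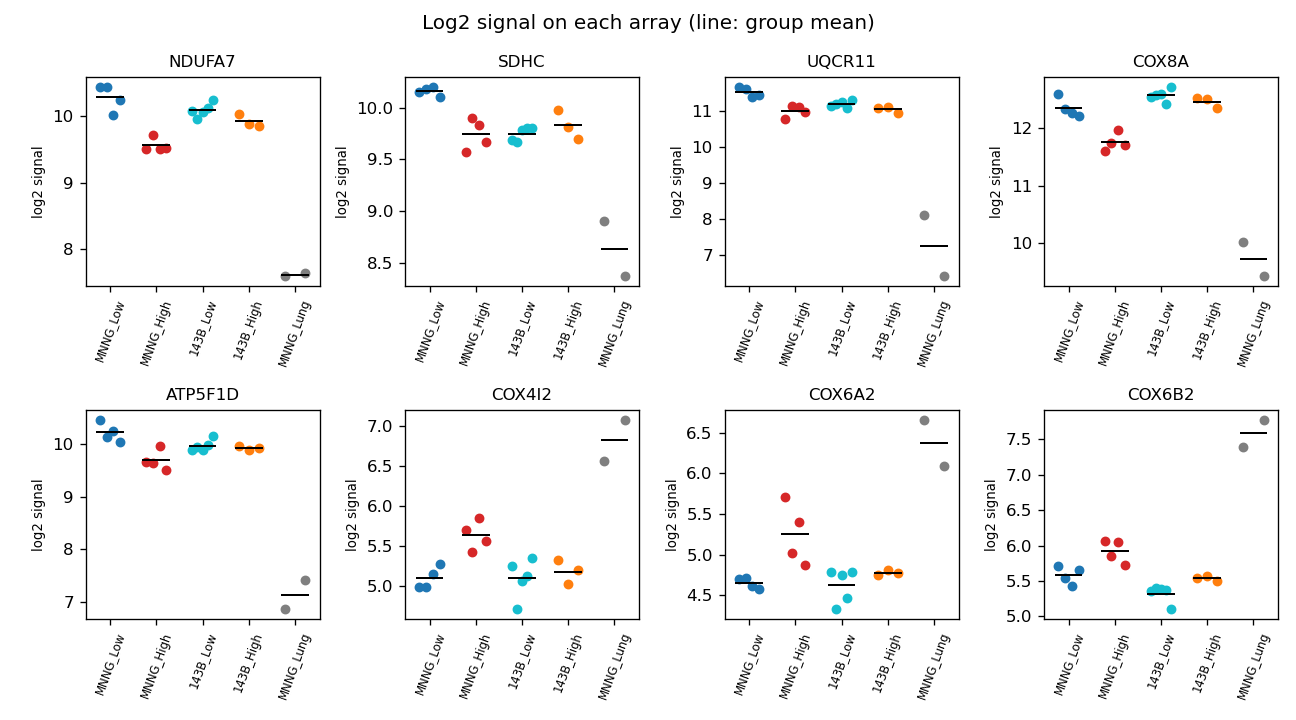
Log2 signal (vertical axis) of 8 subunits on every array, by group, with the group mean as a line. NDUFA7, SDHC, UQCR11, COX8A and ATP5F1D lie lower in MNNG_High than in MNNG_Low without overlap, while the restricted forms COX4I2, COX6A2 and COX6B2 lie higher there and highest on the lung arrays.

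In complex V, ATP5F1D, the delta subunit of the rotating stalk, read 10.47, 10.14, 10.26 and 10.03 in MNNG_Low and 9.66, 9.65, 9.97 and 9.52 in MNNG_High. The groups did not overlap and it was lower, at -0.53 ± 0.14 (limma adjusted p = 0.0167). Without MNNG-1231 Low the difference was -0.44 (limma adjusted p = 0.0516). Its second probe set was at -0.23 and not called, so the call rests on 1 probe set. The catalytic beta subunit ATP5F1B was at -0.34 ± 0.12 (limma adjusted p = 0.0531), alpha ATP5F1A at -0.25 ± 0.31 and gamma ATP5F1C at -0.12 ± 0.13. ATP5IF1, the natural inhibitor of the synthase, was at -0.31 ± 0.15 and not called. The 12 ATP5 genes outside the ATP5F1 group, ATP5IF1 and the peripheral stalk and membrane subunits among them, gave no call and a median of -0.34.

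How many members pass depends on which arrays enter the fit. Once both lung arrays were dropped, 55 of 75 members (73.3%) were lower and 3 higher, where 28.8% of all genes were lower and 15.6% higher. Complex I then had 28 of 33 lower, complex II 2 of 3, complex III 6 of 7, complex IV 7 of 15 and complex V 12 of 17, and COX6B2 joined COX4I2 and COX6A2 as higher (limma adjusted p = 0.0201). In that fit NDUFB7, NDUFA7, NDUFA3, UQCR10, UQCRQ and COX8A had limma adjusted p between 0.0010 and 0.0022. With tumor number as a replicate block, also without the lung arrays, 56 members were lower and 3 higher (37.6% and 18.2% of all genes), including 29 of 33 for complex I. The 15 members called with all arrays were called in both of these fits.

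The MNNG_High arrays stand apart from the rest of the bone tumor arrays in spread, and other measures moved with them. Over the macrophage markers, 4 of the 6 tested of 11 listed were called higher and none lower, beside 10.6% and 15.5% of all genes. The list mean was 5.65 to 6.09 in MNNG_High and 4.96 to 5.13 in MNNG_Low. The defining genes CD163, TYROBP and PTPRC passed 5.36 on 2 arrays each, and the list mean includes them. FCER1G and C1QA passed it on 7 and 8 arrays, with means of 5.96 and 5.77 in MNNG_High and 5.08 and 5.15 in MNNG_Low. They entered the test through groups where they are high, so their values are a description. The GAPDH 3′ minus 5′ control signal, a measure of RNA integrity, was 0.50 to 0.75 in MNNG_High and 0.34 to 0.41 in MNNG_Low, while the ACTB signal of the same kind ran the other way, at 0.75 to 1.55 and 1.38 to 1.74. In the same groups the hybridization controls were at 12.17 to 13.50 and 11.68 to 11.78. Their part in the subunit differences, and that of the number of cells sorted, was not tested. With the GAPDH signal as a covariate 6 members were lower and 1 higher, with a median of -0.10. With the interquartile range as a covariate, without the lung arrays, no member was called and the median was -0.34, beside -0.04 over all genes, of which 3 were called. Without MNNG-1231 High and MNNG-1233 High, the arrays with a range under 3, no member was called and the median was -0.31, beside -0.07 over all genes. A second quantile normalization left COX8A as the only member called and a median of -0.18, beside 0.01 over all genes. The date tag in the labels gave 0 calls and a median of -0.43, and this value rests on the single Low array, of MNNG-1231, that shares a tag with the High arrays.

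Genes around the chain were counted in the same contrast, where 15.5% of all genes and 9.17% of bright genes were called lower. Assembly factors of complex I were lower for 8 of 14, led by TMEM126B (-0.81 ± 0.18) and with NDUFAF2 and NDUFAF6 at -0.53 and -0.50, and those of the other complexes for 10 of 31, among them the cytochrome oxidase factors COA7 (-0.98 ± 0.20) and COX15 (-0.83 ± 0.17) and the complex II factor SDHAF3 (-0.86 ± 0.16). Mitochondrial ribosomal proteins, which translate the mitochondrially encoded subunits, were lower for 28 of 75 with a median of -0.42, MRPS9 at -0.86 ± 0.13. Cytosolic ribosomal proteins had 3 of 59 lower and 2 higher with a median of -0.10. In the TCA cycle, 5 of 12 were lower, with IDH3A at -0.96 ± 0.24 and the succinyl-CoA ligase genes SUCLG2, SUCLA2 and SUCLG1 at -0.73, -0.74 and -0.43. Glycolysis had 1 of 21 lower, ALDOC at -0.47 ± 0.10. Of 12 regulators of mitochondrial biogenesis, 3 were lower, namely the factor NRF1 (-0.90 ± 0.23), TFB1M (-0.71 ± 0.21), a mitochondrial rRNA methyltransferase, and the GABP subunit GABPB1 (-0.56 ± 0.19).

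The same comparison in 143B gave no call. Of 75 members 0 were called in either direction by limma, where 1 gene of all tested was (0.00694%), and the smallest unadjusted p of a member was 0.0868, for COX7A1. The median was -0.09 beside -0.02 over all genes and -0.06 over bright genes. Differences were under 0 for 64 of 75 members and for 913 of the 1352 bright genes. In 8 members the High arrays were all under the Low arrays and in 3 all above, where 6.53% and 5.34% of all genes did so. The 8 include UQCRQ (-0.21 ± 0.31), ATP5F1B (-0.19 ± 0.13) and NDUFA5 (-0.60 ± 0.37). Those above were COX7A1 (0.44 ± 0.24), COX6B2 (0.22 ± 0.13) and ATP5MC2 (0.13 ± 0.11), a subunit of the membrane ring. For NDUFA7 the 143B_Low arrays read 10.07, 9.95, 10.06, 10.12 and 10.24 and the 143B_High arrays 10.03, 9.88 and 9.85.

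The difference between the lines was itself tested, as the 143B contrast minus the MNNG contrast. No member was called by limma, with 0 of 75 in either direction and 1 gene of all tested (0.00694%). The median was 0.24, beside 0.15 over all genes and 0.18 over bright genes. Values were above 0 for 68 of 75 members and for 1118 of the 1352 bright genes. NDUFA7 differed by 0.55 ± 0.17, NDUFB7 by 0.57 ± 0.20, SDHC by 0.49 ± 0.18, COX8A by 0.48 ± 0.20 and ATP5F1D by 0.48 ± 0.20, with limma adjusted p from 0.453 to 0.475. The call of these genes in MNNG and not in 143B therefore does not show that the lines differ.

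The Low cells of 143B were compared with the Low cells of MNNG to set the lines side by side, so this comparison and those of MNNG_High and MNNG_Lung share the MNNG_Low arrays. Of 75 members 17 were lower in 143B_Low (22.7%) and 2 were higher (2.67%), where 14.5% of all genes were lower and 14.4% higher. The median over members was -0.25, beside -0.04 over all genes and -0.02 over bright genes. With the GAPDH covariate the median was -0.03 and 9 members were lower, and 9 were lower after a second quantile normalization. The groups did not overlap for 37 members on the lower side and 7 on the higher side, beside 20.2% and 18.1% of all genes. Calls fell in every complex, 10 lower and 1 higher of 33 in complex I, 1 and 1 of 3 in complex II, 2 of 7 in complex III, 2 of 15 in complex IV and 2 of 17 in complex V. All 143B arrays carry 1 date tag of their own, so line and date tag cannot be told apart.

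COX7A1 had the widest difference among the members. It read 7.10, 7.22, 6.32 and 7.16 in MNNG_Low and 4.49, 4.26, 4.40, 4.09 and 4.36 in 143B_Low, with MNNG_High at 6.34 to 7.56 and 143B_High at 4.58 to 5.06. Every MNNG array was above every 143B array, and the difference of the Low cells was -2.63 ± 0.22. It passed the filter value on 10 arrays, all of MNNG, so it entered the test only through the line where it is high. Its call is a description and its size is uncertain. The related gene COXFA4L2, a relative of the complex IV subunit COXFA4 known to be raised in low oxygen, was also lower in 143B_Low, at -1.68 ± 0.22. COX4I2, COX6A2 and COX6B2 were at 0.00 ± 0.15, -0.03 ± 0.16 and -0.26 ± 0.12 and were not called.

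**Figure D4:**
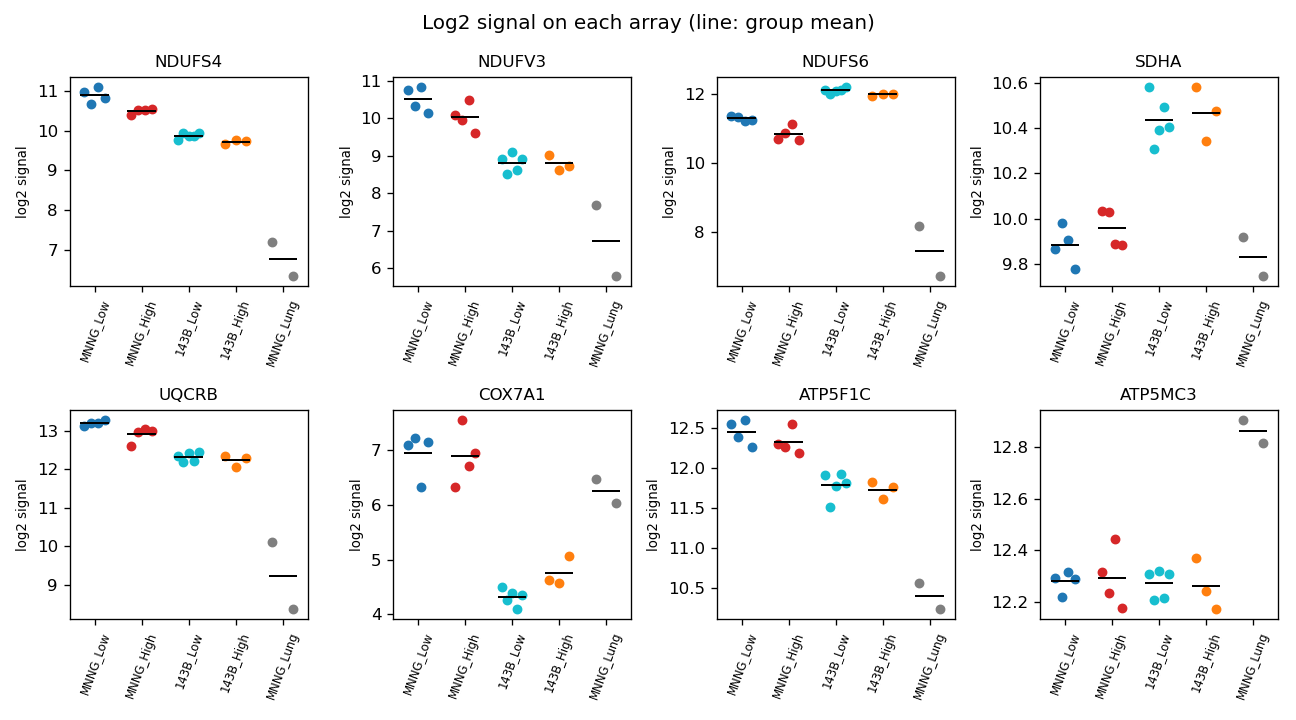
Log2 signal (vertical axis) of 8 subunits on every array, by group, with the group mean as a line. NDUFS4, NDUFV3, UQCRB, COX7A1 and ATP5F1C lie lower on all 143B arrays than on all MNNG bone tumor arrays, and NDUFS6 and SDHA lie higher. ATP5MC3 is higher on both lung arrays than on any bone tumor array.

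In complex I, NDUFS4, an accessory subunit at the electron-input end, read 10.98, 10.68, 11.11 and 10.83 in MNNG_Low and 9.75, 9.94, 9.86, 9.86 and 9.93 in 143B_Low. The gap between the groups was wider than the range within either (-1.03 ± 0.14, limma adjusted p = 2.07e-05). NDUFV3, a small subunit beside the flavin site, was lower, at -1.70 ± 0.28 and NDUFA6 by -1.01 ± 0.24, each on both of its probe sets tested, and NDUFA10 by -0.48 ± 0.12 on 1 of 3. NDUFS7 was at -0.41 ± 0.13 with its second probe set at 0.13. NDUFS6, named after its values were seen as the only member of complex I called higher, read 11.36, 11.33, 11.22 and 11.26 in MNNG_Low and 12.10, 11.99, 12.08, 12.13 and 12.21 in 143B_Low (0.81 ± 0.20, limma adjusted p = 0.0040).

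In complex II the anchor SDHC was lower, at -0.41 ± 0.12, but only 2 of its 6 probe sets tested were called lower. The 6 ran from -0.68 to -0.01. SDHA was higher, on the probe set described above as able to bind related sequences. SDHA read 9.87, 9.98, 9.91 and 9.78 in MNNG_Low and 10.58, 10.31, 10.39, 10.49 and 10.41 in 143B_Low, without overlap (0.55 ± 0.10, limma adjusted p = 4.33e-04). In complex III, UQCRB, which helps form the ubiquinone site, read 13.12, 13.21, 13.20 and 13.29 in MNNG_Low against 12.35, 12.19, 12.44, 12.21 and 12.46, lower, at -0.88 ± 0.23. All 4 of its probe sets were called lower, from -0.88 to -1.21. CYC1 was at -0.99 ± 0.34, a call lost in 8 of 9 fits without 1 array (limma adjusted p up to 0.0934) and kept without 143B-1255 Low.

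In complex IV, COX5B was lower, at -0.46 ± 0.12, with 3 of its 4 probe sets called lower and the other at 0.31. In complex V, ATP5F1C, the gamma subunit of the rotating stalk, read 12.55, 12.38, 12.60 and 12.27 in MNNG_Low against 11.92, 11.51, 11.77, 11.93 and 11.81. The groups did not overlap (-0.66 ± 0.13, limma adjusted p = 5.05e-04), and 3 of 4 probe sets were called lower. These 3 are of the type that can also bind related sequences, and the other was at -0.50 and not called. ATP5PO, of the peripheral stalk, was at -0.69 ± 0.23, with its call lost without 143B-1251, 143B-1252, 143B-1254, MNNG-1231 or MNNG-1233 Low. Subunits at the catalytic site, ATP5F1A (0.21 ± 0.29) and ATP5F1B (-0.25 ± 0.12), were not called. Without the lung arrays 33 members were lower and 3 higher, beside 19.1% and 18.1% of all genes, and without MNNG-1231 Low 11 were lower.

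Around the chain, where 14.5% of all genes were lower and 14.4% higher, complex I assembly factors had 3 of 14 lower and 1 higher between the lines, led by NDUFAF2 (-1.13 ± 0.14), and the other assembly factors 5 of 31 lower and 2 higher, with TMEM70, of ATP synthase assembly, at -1.21 ± 0.24. Mitochondrial ribosomal proteins had 13 of 75 lower and 7 higher, among them MRPS6 at -1.49 ± 0.14 and MRPL17 at 1.35 ± 0.21. In the TCA cycle, 4 of 12 were lower and 1 higher, DLD at -1.14 ± 0.20 and IDH2 at 0.75 ± 0.15. Glycolysis had 5 of 21 lower, among them the glucose transporter SLC2A1 (-0.71 ± 0.15). Of the biogenesis regulators TFB2M (-0.78 ± 0.17), a mitochondrial transcription factor, and the coactivator PPARGC1A (-0.79 ± 0.29) were lower.

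The lung metastasis arrays were compared with MNNG_Low. Of the MNNG_Low arrays only MNNG-1231 Low shares the date tag of the lung arrays. Of 75 members 70 were lower (93.3%), 4 were higher and SDHA alone was not called, where 51.9% of all genes were lower and 35.1% higher. Of bright genes 88.2% were called lower and 6.88% higher, and of the 58 bright members 96.6% and 1.72%. The lung arrays did not overlap MNNG_Low for 69 members on the lower side and 4 on the higher side, beside 51% and 34.7% of all genes. The median was -4.17, beside -3.84 over bright genes and -0.64 over all genes, and 1233 of the 1352 bright genes had a difference under 0. The 2 arrays differed, with a median of -3.17 on sample 1233 and -4.83 on Mix. Complex medians were -4.19 for I, -1.52 for II, -4.26 for III, -4.23 for IV and -3.70 for V.

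**Figure D5:**
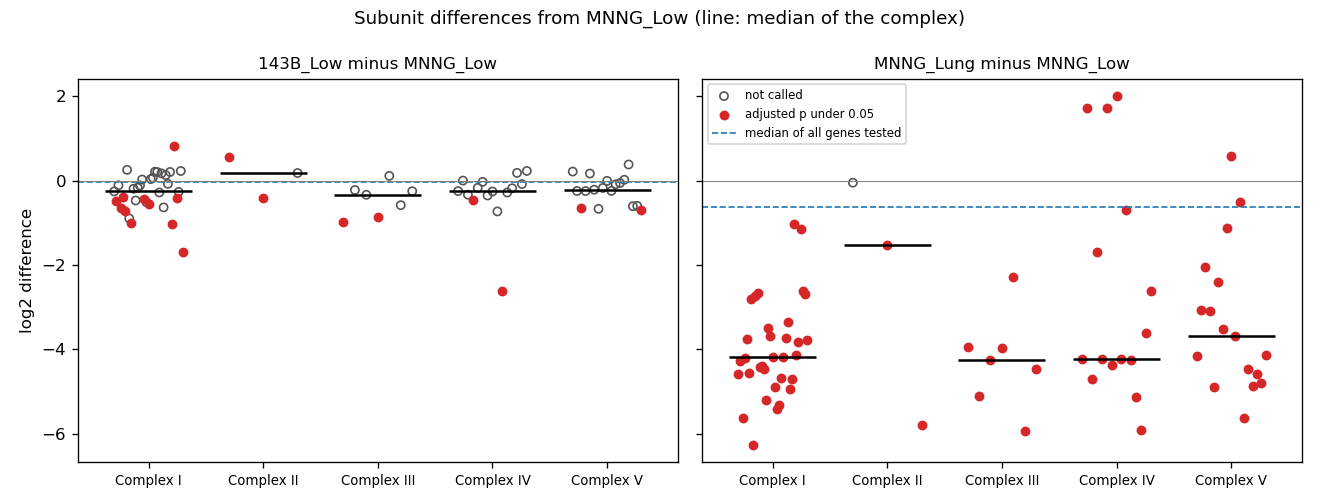
Log2 difference from MNNG_Low for every tested subunit in 143B_Low (left) and MNNG_Lung (right), by complex, with filled points past an adjusted p of 0.05, black lines at the median of a complex and a dashed line at the median of all genes tested. In the lung panel nearly all points lie between -6.27 and -0.51, with COX4I2, COX6A2, COX6B2 and ATP5MC3 above 0.

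The members of smallest p in each complex were NDUFA10, SDHD, UQCRC2, COX8A and ATP5F1B. NDUFA10 read 6.92 and 7.33 on the lung arrays 1233 and Mix against 11.26 to 11.59 in MNNG_Low (-4.28 ± 0.15, limma adjusted p = 2.77e-14), although another of its probe sets was higher by 1.58. SDHD read 5.58 and 3.59 against 10.26 to 10.48 (-5.81 ± 0.35). UQCRC2 read 7.09 and 4.65 against 11.59 to 12.05 (-5.93 ± 0.38). COX8A read 10.03 and 9.43 against 12.20 to 12.59 (-2.62 ± 0.17), and ATP5F1B read 9.64 and 9.11 against 12.35 to 12.56 (-3.07 ± 0.15). All of these lung values lie under all MNNG_Low values, and the Mix array was the lower of the pair except for NDUFA10.

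The members higher on the lung arrays were COX6B2, COX6A2, COX4I2 and ATP5MC3, the last named after its values were seen. COX6A2 and COX4I2 passed the filter value only on MNNG_High and MNNG_Lung arrays, so their calls are a description here too. COX6B2 read 7.39 and 7.78 against 5.43 to 5.71 in MNNG_Low (2.002 ± 0.15), COX6A2 6.66 and 6.09 against 4.58 to 4.72 (1.72 ± 0.21) and COX4I2 6.57 and 7.08 against 4.99 to 5.28 (1.72 ± 0.19). ATP5MC3, a membrane ring subunit, read 12.91 and 12.82 against 12.22 to 12.32 (0.58 ± 0.13), while its other 2 probe sets were called lower. COX7A1 was at -0.70 ± 0.29 with overlapping groups, and its call was lost without Mix (-0.47, limma adjusted p = 0.225) or without MNNG-1231, MNNG-1232 or MNNG-1235 Low (limma adjusted p up to 0.0704). Of 37 members with several probe sets tested, 12 had probe sets called in both directions here, against 1 in the MNNG contrast. The macrophage list mean was 6.94 to 6.96, and 6 of its 6 tested markers were called higher. The muscle list mean was 5.56 to 6.19, with 4 of 5 higher. Endothelial markers were higher for 3 of 3, erythroid for 3 of 3 and lung epithelial for 5 of 7. ALAS2, VWF, FCER1G and C1QA passed the filter value on 3, 7, 7 and 8 arrays, and their highest means were on the lung arrays. The filter thus favored markers that are high there, and these counts are a description. Of the mesenchymal tumor cell markers 4 of 6 were lower. Of all genes tested 35.1% were called higher and 51.9% lower, and with no filter 50% of 19775 genes were higher. The ACTB 3′ minus 5′ signal was -2.16 and -2.97, where every bone tumor array was above 0, and the hybridization controls were at 13.86 and 14.67. Their part in these differences was not tested.

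On the lung arrays, where 51.9% of all genes were lower, the related lists had 14 of 14 complex I assembly factors, 27 of 31 other assembly factors, 73 of 75 mitochondrial and 54 of 59 cytosolic ribosomal proteins, 9 of 12 TCA cycle genes, 18 of 21 glycolysis genes and 8 of 12 biogenesis regulators called lower. The other 4 biogenesis regulators were higher. Medians were -3.23 for mitochondrial and -3.01 for cytosolic ribosomal proteins and -3.89 for glycolysis, beside -4.17 for the members.

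Over the 18 arrays, the genes outside the list with the highest Pearson r to the members' median were HNRNPC and MRPL33 (0.998 each), COX16, H2BC12 and LSM7 (0.997 each). These values include the lung arrays, on which the members' median was far lower, and the share of those arrays in the likeness was not tested. Over the 16 bone tumor arrays the first were POP4 (0.966), PHB2 (0.957), MRPL30 (0.947), DERA (0.93) and QRSL1 (0.929). These arrays share their tumors and normalization, so the values describe likeness alone.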

How the data were processed

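Total RNA of 18 samples was hybridized to Affymetrix 3′ expression arrays. The authors deposited log2 signals per probe set, computed by RMA according to the submitters' processing notes. Its version is not stated in the sources used here, nor are the arrays normalized together. RMA brings arrays to a common distribution, which can hide a change shared by most genes. Depth does not apply to arrays, and the number of arrays per group, 2 to 5, limits the precision.

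Of 54675 probe sets, 41097 name 1 gene in the platform annotation, 1801 several and 11777 none. Only the first kind was used, with 1 probe set per gene, that of the highest mean over 18 arrays. Symbols were compared with RefSeq GRCh38.p14 through Entrez IDs, which held 19735 of 19775 genes. Genes at 5.36 (the table's median) or above on at least 3 arrays were tested, 14418 in all. A member that passed through 1 bright group had to differ there, so the counts over tested members are given beside those over all genes.

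R 4.3.3 with limma 3.58.1 fitted 5 group means over all 18 arrays, with 5 comparisons, Benjamini-Hochberg adjustment over all genes and a threshold of 0.05. The procedure was tested on simulated data. The members, gene lists and comparisons were chosen with earlier results of these data known. Groups came from the sample titles.

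Named members were, in each comparison and complex, up to 4 called genes of smallest p (the 2 of smallest p where fewer than 2 were called), the catalytic core, the restricted isoforms and ATP5IF1. For related lists up to 4 called genes of smallest p were named. Exceptions are marked in the text. Promoter letters were shortened from longer forms for printing, after the longer ones had been searched. Tumor numbers come from the titles and pair High and Low cells. Same-tumor deviations from group means correlated with r of 0.494, 0.37, 0.299 and 0.579 in the 4 MNNG pairs and 0.542 in 143B-1253. The pool 51&52 gave -0.192 and 0.529 with its Low arrays and the pool 54&55 0.243 and 0.0626.

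Alternatives were a second quantile normalization, median centring, no filter, the mean over probe sets, the omission of _x_at and _s_at probe sets, the lung arrays left out, the tumor block, array weights, covariates for the GAPDH signal, interquartile range and date tag, and each array left out in turn. Leaving out the MNNG_High arrays of range under 3 was chosen after the data were seen.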

Additional observations from a re-analysis of the deposited data

Results flagged for a closer look

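Each member chosen for naming, and the medians of all members and of each complex, were examined in every group of 4 or 5 arrays for an array far from the rest. Of 147 such groups 11 had one, and chance gives about 1 in 20. In MNNG_High the arrays were COX5A in MNNG-1231 at 12.44 (others 12.49), NDUFA7 in MNNG-1232 at 9.71 (others 9.51 to 9.52) and UQCRB in MNNG-1231 at 12.6 (others 12.98 to 13.06). In MNNG_Low they were COX7A1 in MNNG-1233 at 6.32 (others 7.1 to 7.22), COX7A2L in MNNG-1235 at 11.7 (others 11.81 to 11.82) and NDUFB10 in MNNG-1231 at 11.73 (others 11.54). In 143B_Low they were NDUFV1 in 143B-1253 at 11.12 (others 11.26 to 11.31), NDUFS1 in 143B-1251 at 10.24 (others 9.97 to 10.01), COX6B2 in 143B-1255 at 5.1 (others 5.36 to 5.39), COX4I1 in 143B-1252 at 12.82 (others 13.04 to 13.13) and ATP5IF1 in 143B-1251 at 9.28 (others 9.48 to 9.53). The COX7A1 array of MNNG-1233 still lies above all 143B arrays, and the NDUFA7 array of MNNG-1232 still lies under all MNNG_Low arrays.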

How the results depend on the processing

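Counts are out of 75 members, or 60 when _x_at and _s_at probe sets were omitted, and the cause of a change was not tested. For MNNG_High against MNNG_Low the members called lower were 13, and 1 with a second quantile normalization, 21 with median centring, 55 without the lung arrays, 56 with the replicate block, 44 with array weights and 6 with the GAPDH covariate. They were 0 with the interquartile range or the date tag as covariate and without the MNNG_High arrays of range under 3. The members called higher were 2, and 0 under those 3 settings and the second quantile normalization, 1 with the GAPDH covariate and 4 with the mean over probe sets. The median of -0.36 became -0.179 with the second quantile normalization, -0.468 with median centring and -0.0969 with the GAPDH covariate. Leaving out 1 array gave 6 to 13 lower, 0 to 3 higher and medians of -0.37 to -0.315. The count was 6 without MNNG-1231 High or MNNG-1231 Low and 7 without MNNG-1233 Low.

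For 143B_High against 143B_Low no setting gave a call, the median turned to 0.0326 with the GAPDH covariate, and leaving out 1 array gave -0.103 to -0.0572. The replicate block changed no call there. For the difference of the contrasts array weights gave 1 higher, of complex I, and the median was 0.133 with the second quantile normalization, 0.119 with the GAPDH covariate and 0.213 to 0.292 without 1 array.

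For 143B_Low against MNNG_Low the members called lower were 17, and 9 with the second quantile normalization, 11 with _x_at and _s_at left out, 33 without the lung arrays, 41 with array weights, 9 with the GAPDH covariate and 36 with the interquartile range. The members called higher were 2, and 5 with either of these covariates. The median of -0.25 became -0.184 with the mean over probe sets, -0.125 with _x_at and _s_at left out and -0.034 with the GAPDH covariate. Leaving out 1 array gave 11 to 17 lower, 2 higher and medians of -0.252 to -0.197. For the lung arrays the members called higher were 4, and 10 with the second quantile normalization and 11 with _x_at and _s_at left out. The median of -4.17 became -2.82, -2.83 with _x_at and _s_at left out and -2.67 with the mean over probe sets. Leaving out 1 array gave 68 to 70 lower, 4 higher and medians of -4.83 to -3.17.

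Directions turned for a few named members. With _x_at and _s_at left out these were NDUFB7 (0.0118) and NDUFS7 (0.436) in MNNG, NDUFS7 (0.132) and COX5B (0.314) between the lines, and NDUFB7 (0.685), NDUFS7 (1.56) and UQCR11 (0.345) in the lung. With the mean over probe sets they were NDUFS7 in MNNG (0.0106) and lung (0.201). With the second quantile normalization they were NDUFS3 (0.879), NDUFS7 (0.697), SDHC (0.787) and SDHA (1.78) in the lung, and with the interquartile range COX6A2 in MNNG (-0.0528). No detection call was used, so differences from groups under 5.36 give a direction only.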
